A study of Homo sapiens with 24 samples.

Results

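Genes of the endoplasmic reticulum (ER) chaperone, unfolded protein response and early secretory machinery were followed across 24 single-colour Illumina bead arrays of C4-2B cells. A list of 36 gene symbols was drawn up by function, with earlier results of these data known. Its members were all probes carrying one of these symbols in the platform's probe table and detected on the arrays. Counts of calls among them are therefore no independent test of the list. The table held 34 of the 36 symbols through 44 probes, and HERPUD1 and KDELR2 were not analysed here. Of these, 42 probes of 32 genes were detected, out of 23038 detected probes in all. ERN1, which encodes the stress sensor IRE1, and PDIA3, a glycoprotein disulfide isomerase, were detected on 0 of 24 arrays. Each has only 1 probe in the table, so this does not show that either gene was silent. A probe counted as detected where its detection p was below 0.05 on 4 or more of the 24 arrays. SEL1L passed on 5 arrays only, whereas 39 of the 42 member probes were detected on all 24.

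C4-2B, the only line used, is a human prostate cancer line derived from LNCaP that responds to androgen. For 3 days before hormone it grew in RPMI medium without phenol red and with 5% serum stripped of steroids by charcoal. Cells carried an siRNA against EP300 (sip300), against CREBBP (siCBP) or against a non-specific sequence (siNS). Each arm was sampled with DHT (dihydrotestosterone, the strongest natural androgen, at 10 nM for 16 h) and without it, which gave 6 groups of 4 arrays with 1 RNA sample each. The targets p300 (gene EP300) and CBP (gene CREBBP) are related histone acetyltransferases that act as transcriptional coactivators, and the series title asks whether their roles in androgen-regulated expression differ. The sample titles name neither a vehicle nor a common time of harvest for the arrays without DHT. Replicates are numbered 1 to 4, but no label says whether they came from separate cultures. The p-values therefore rest on the scatter among these samples, which may be technical. All 6 groups carry an siRNA, and the siRNA sequences are not given in the sources used here.

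Secreted and membrane proteins enter the ER through the signal recognition particle and the translocon, are folded there by BiP, its co-chaperones, lectins and disulfide isomerases, and leave in vesicles coated with COPII. When unfolded proteins accumulate, the sensors IRE1, PERK and ATF6 raise transcription of folding, degradation and export genes, in part through XBP1, whose messenger RNA is spliced by IRE1. Prostate luminal cells secrete large amounts of protein, among them KLK3, the prostate-specific antigen, whose gene is a classical androgen target.

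Promoters of the member genes carry the best known DNA elements of this response, so these are shown before the measurements. RefSeq promoter windows on GRCh38.p14, from 250 bases before to 50 bases after the transcription start, were available for 30 of the 32 detected member genes. The ER stress response element (ERSE) was searched as CCAAT and CCACG with 9 free bases between them, ERSE-II as ATTGG and CCACG with 1 free base between, and the core of the unfolded protein response element (UPRE) as TGACGTGG, each on both strands. ERSE was found in 7 member genes, 23.3% of the 30, against 0.0916% of the 27305 genes in the table. ERSE-II was found in HYOU1 and SDF2L1, 6.67% of the 30, against 0.0696%. The UPRE core was found in DNAJC10, HYOU1 and KDELR3, 10.0% against 0.927% of genes. The bare pentamer CCACG, which every ERSE and ERSE-II holds, occurred in 24 of 30 member genes and in 42.1% of all genes. A full androgen response element, AGAACA and TGTTCT with 3 free bases between, was found in 0 member windows and in 1 of the 35116 windows of the table. A match describes letters in the window and is no evidence of binding. Only exact matches were counted, so copies of an element that differ from the searched letters are missed.

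The matched sites are printed because the genes that carry them recur in the results, HSPA5 and XBP1 through an ERSE and HYOU1 and SDF2L1 through an ERSE-II. Capitals mark the fixed letters of each motif, read 5′ to 3′ on the strand given, on GRCh38.p14.
HSPA5 ERSE, chr9:125241391-125241409, minus strand: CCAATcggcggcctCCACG
HSP90B1 distal ERSE, chr12:103930216-103930234, plus strand: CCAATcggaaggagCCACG
HSP90B1 proximal ERSE, chr12:103930321-103930339, minus strand: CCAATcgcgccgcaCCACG
CALR ERSE, chr19:12938384-12938402, minus strand: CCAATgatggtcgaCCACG
CANX ERSE, chr5:179698778-179698796, plus strand: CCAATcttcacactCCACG
PDIA6 ERSE, chr2:10812853-10812871, minus strand: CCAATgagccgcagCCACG
XBP1 ERSE, chr22:28800603-28800621, minus strand: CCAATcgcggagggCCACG
CRELD2 ERSE, chr22:49918554-49918572, minus strand: CCAATccgagttcgCCACG
HYOU1 proximal ERSE-II, chr11:119057274-119057284, plus strand: ATTGGaCCACG
HYOU1 distal ERSE-II, chr11:119057380-119057390, plus strand: ATTGGaCCACG
SDF2L1 ERSE-II, chr22:21642114-21642124, minus strand: ATTGGtCCACG

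The 250 bases before the start of HSPA5 (chr9:125241344-125241593, minus strand) and of HYOU1 (chr11:119057206-119057455, minus strand) are given in the direction of transcription. HSPA5 encodes BiP, the ER Hsp70, and its window holds 1 exact ERSE match, in capitals. HYOU1 encodes the Hsp70-like nucleotide exchange factor of BiP, and its window holds 2 ERSE-II matches, both read on the opposite strand. The distal one overlaps the UPRE core in the same run of capitals.
HSPA5: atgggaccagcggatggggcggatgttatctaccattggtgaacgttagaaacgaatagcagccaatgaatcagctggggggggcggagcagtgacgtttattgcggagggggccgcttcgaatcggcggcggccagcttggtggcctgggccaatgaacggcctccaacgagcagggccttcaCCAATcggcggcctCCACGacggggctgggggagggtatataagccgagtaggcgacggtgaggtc
HYOU1: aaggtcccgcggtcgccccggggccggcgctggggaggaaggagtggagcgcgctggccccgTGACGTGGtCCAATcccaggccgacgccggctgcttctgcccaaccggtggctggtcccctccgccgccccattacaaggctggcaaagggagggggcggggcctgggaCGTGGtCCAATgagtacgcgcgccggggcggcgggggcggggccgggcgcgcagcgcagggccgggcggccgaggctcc

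**Figure D1:**
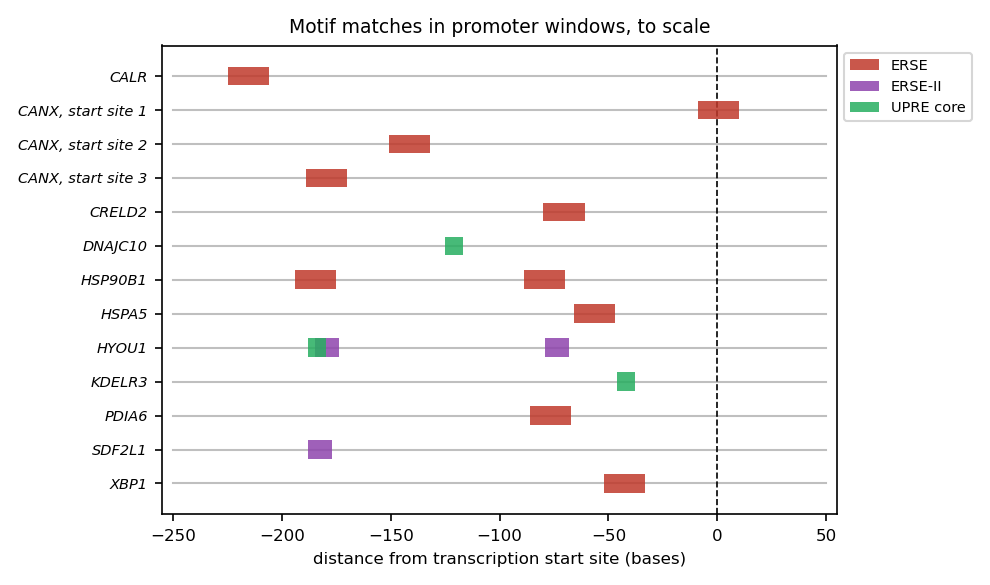
Matches of ERSE, ERSE-II and the UPRE core in promoter windows of 11 member genes, against distance from the transcription start in bases, to scale. CANX has 3 annotated starts, which see the same ERSE at different distances, and HYOU1 is the member with both ERSE-II and UPRE core.

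Between 17663 and 19830 probes were detected per array. EP300 signal in sip300 cells was 43.9% of that in siNS cells with DHT and 54.3% without it, and CREBBP signal in siCBP cells was 29.9% and 31.1%. FKBP5, an androgen-induced co-chaperone of steroid receptors, rose with DHT by log2 2.25, 2.65 and 2.70 in sip300, siCBP and siNS cells. KLK3 rose by 2.24 over the 3 arms (limma adjusted p = 0.000339). In single arms the KLK3 difference was 2.45 in sip300, 2.22 in siCBP and 2.06 in siNS cells. These did not pass in the same limma fit (adjusted p = 0.142, 0.111 and 0.137). KLK3 signal in sip300 cells was 23.1% of that in siNS cells with DHT and 17.6% without it. All 8 of the luminal prostate markers held by the probe table were detected, against 1 of 4 basal, 2 of 6 stromal and 2 of 5 leukocyte markers. KRT5 and KRT14, which define basal cells, were detected on 0 arrays. The arrays sat on 2 slides that each held 2 arrays of every group, whose raw signal averaged 782 ± 70.1 on slide 1 and 643 ± 43.7 on slide 2 (SD, 12 arrays each), and values within each slide are given beside the main ones.

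After 16 h of DHT, some genes of protein folding, ER entry and export were higher than without it. So were 2 of 5 detected degradation genes. Averaged over the 3 siRNA arms, 21 of the 42 member probes, from 18 genes, rose and 0 fell. Of all detected probes 2.9% rose and 2.35% fell, 5.24% in all. With 1 probe per named gene the shares were 3.42% and 2.94%. They included the COPII cargo adaptor SEC24D (1.32 ± 0.118, mean log2 difference ± SE), the BiP co-chaperones DNAJB9 (1.21 ± 0.133) and DNAJC3 (0.80 ± 0.149), the disulfide isomerase PDIA5 (0.85 ± 0.125) and the signal peptidase subunit SPCS3 (0.69 ± 0.103). The stress transcription factors XBP1 (0.09 ± 0.126) and ATF6 (0.08 ± 0.0866) and the major chaperones HSPA5 (0.34 ± 0.137), CALR (0.11 ± 0.0796) and CANX (0.17 ± 0.0762) did not pass the test. A call here means a Benjamini-Hochberg adjusted p under 0.05 over all 23038 detected probes in a limma fit of 6 group means, and every value is a log2 signal or a difference of log2 signals.

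All 42 member probes had a mean DHT difference above 0, with a median of 0.33 against -0.01 for all detected probes. Within slides 1 and 2 the member medians were 0.33 and 0.33, with 40 and 41 of 42 above 0. In bulk RNA, a change in the share of cells and a change in RNA per cell cannot be told apart. By arm, 1 probe rose with DHT in sip300 cells, 7 in siCBP cells and 8 in siNS cells, and 0 fell in any arm. The matching shares of all detected probes that rose were 0.482%, 1.02% and 1.34%, and those called either way were 0.525%, 1.68% and 1.96%. Member medians were 0.23 in sip300, 0.40 in siCBP and 0.47 in siNS cells, against -0.01, -0.01 and -0.01 for all probes. On slides 1 and 2 they were 0.10 and 0.33 in sip300, 0.40 and 0.36 in siCBP and 0.47 and 0.39 in siNS cells.

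SEC24D rose in each arm. DNAJB9, HYOU1, MANF, PDIA5 and SEC24D rose in both the siCBP and the siNS arm, which is 71.4% of the 7 genes called in each. SDF2L1 and SEC23B were called in siCBP cells only and DNAJC3 and SPCS3 in siNS cells only, which does not show a difference between arms. With replicate number as a block, the calls were 24 probes for the mean of the arms (background 4.67% higher), 3 in sip300 (0.92%), 14 in siCBP (1.87%) and 17 in siNS cells (2.43%). The arrays of a group with DHT lay wholly above those without it for 6 of 42 member probes in sip300, 13 in siCBP and 16 in siNS cells. The matching shares of all probes were 1.79%, 2.61% and 3.33%. Member probes wholly below numbered 0 in any arm, where the share of all probes is not given and nothing is read.

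**Figure D2:**
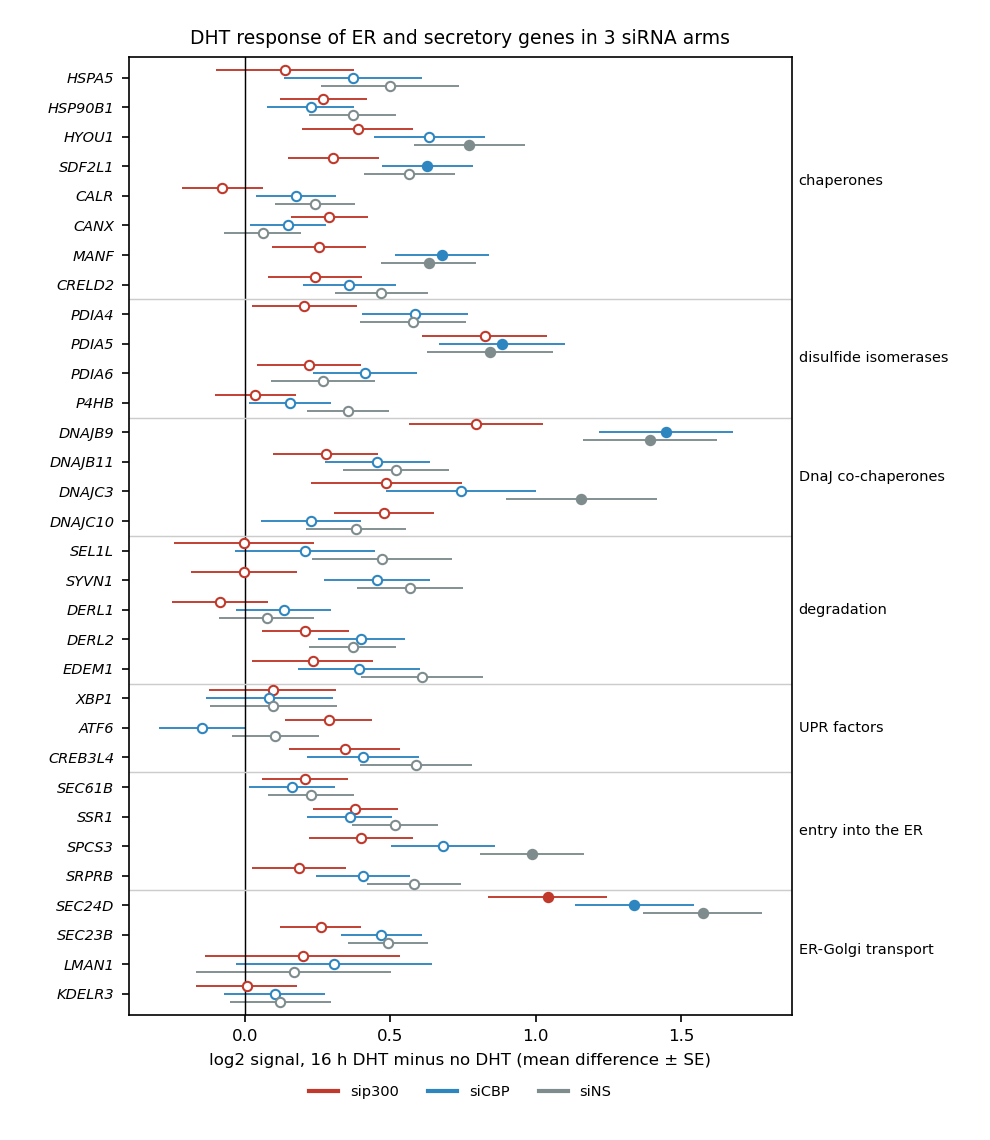
Difference in log2 signal between 16 h DHT and no DHT for the brightest probe of 32 member genes, grouped by role, in sip300 (red), siCBP (blue) and siNS (grey) cells. Points are means of 4 arrays against 4 with SE bars, filled where the adjusted p is under 0.05. SEC24D is the gene filled in all 3 arms, and most points lie right of 0.

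Of the 7 member genes with an ERSE, CRELD2 was the 1 called for the mean DHT response, and the block added HSP90B1 and PDIA6 (block adjusted p = 0.0287 and 0.00611), which makes 3 of 7. Their median difference was 0.29, ranging from 0.09 in XBP1 to 0.36 in CRELD2. Both ERSE-II genes, HYOU1 and SDF2L1, rose. Of the 21 genes whose windows held neither motif, 14 rose, with a median of 0.41, and the block added SYVN1 (block adjusted p = 0.00760). These counts are descriptions of 30 genes and were not tested.

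Under DHT, sip300 cells had lower signals than siNS cells for genes of folding, ER entry and export. With DHT, 9 member probes of 8 genes fell in sip300 against siNS cells and 0 rose. Of all detected probes 4.41% fell and 4.74% rose, 9.14% in all. With 1 probe per named gene, 5.18% fell and 6.6% rose. The 8 genes were DNAJC3, SPCS3, PDIA5, SEC24D, SDF2L1, PDIA4, SRPRB and SEC23B. The median difference of the 42 probes was -0.35, against 0.00 for all probes, with 34 of 42 below 0, and it was -0.39 and -0.37 on slides 1 and 2. All 4 sip300 arrays lay below all 4 siNS arrays for 16 probes, against 7.29% of all probes. They lay above them for ATF6, where the share of all probes is not given. With replicate number as a block, 17 probes of 14 genes fell (background 8.22% lower).

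Without DHT, fewer members were called. The 2 probes that fell in sip300 against siNS cells were PDIA5 and the dimmer of 2 SPCS3 probes, where 3.04% of all probes fell and 3.13% rose, 6.17% in all, a share like that of the members. Here the member median was -0.08, and -0.02 and -0.20 on the slides. The block gave 7 calls, 6 lower and 1 higher, which is 16.7% of the member probes. That is near the 14.3% of all probes called in either direction, whose split by direction is not given. Nothing is read from this count about the members. The 6 lower probes then were those of PDIA5, SDF2L1, PDIA6, XBP1, SPCS3 and LMAN1, and the higher one was CALR.

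In siCBP against siNS cells 0 member probes were called with DHT and 0 without it, where 0.0217% and 0.0391% of all probes were. At an unadjusted p under 0.05, limma gave 2 of 42 with DHT and 3 of 42 without. The share of all probes at that threshold is not given, and nothing is read from these 2 counts. Member medians were 0.01 with DHT and 0.09 without it. With DHT the members' 95% intervals together spanned -1.66 to 1.59. Both ends of that span belong to the dimmer of 2 DNAJC10 probes, which had the largest SE. The median SE of the 42 probes was 0.18, so most member intervals were far narrower than the span. DERL1, a rhomboid-like channel subunit of ER-associated degradation, had the lowest unadjusted p in both, at -0.56 ± 0.163 with DHT and -0.62 ± 0.163 without it (limma adjusted p = 0.681 and 0.623). With the authors' deposited values in the same fit DERL1 was called in both, at -0.56 (adjusted p = 0.0309) and -0.61 (adjusted p = 0.0173), and 0 other members were, against 0.612% and 0.621% of all probes.

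Set against siCBP cells directly, sip300 cells with DHT had 12 member probes lower, of 10 genes, and 1 higher, where 2.49% of all probes were lower and 3.21% higher, 5.7% in all. The lower genes were DNAJB9, DNAJC3, XBP1, PDIA5, PDIA4, SDF2L1, SEC24D, HYOU1, SPCS3 and MANF, and the higher one was ATF6. Without DHT, PDIA5 and both XBP1 probes were lower and DERL1 was higher, 4 calls in all. Of all probes 1.95% were lower and 1.82% higher there, 3.77% in all. Medians of the 42 probes were -0.33 with DHT (-0.36 and -0.31 on slides 1 and 2) and -0.17 without it (-0.09 and -0.21). With the block, the calls were 17 with DHT and 8 without it, of backgrounds of 13.1% and 9.84%. The comparisons against siNS and against siCBP cells share the sip300 arrays, and both siRNA arms were set against the same siNS arrays.

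The DHT response itself was not shown to differ between arms. For the difference between the DHT response in sip300 and in siNS cells, 0 of 42 member probes and 0.00434% of all probes were called, the lowest member adjusted p was 1.000, and 2 members, SPCS3 and SYVN1, had an unadjusted p under 0.05. The members' median difference was -0.23, with 35 of 42 below 0. Slide 1 alone gave 37 of 42 below 0 and slide 2 alone 24. For SEC24D it was -0.53 with a 95% interval of -1.13 to 0.06, and for DNAJB9 -0.60 (-1.27 to 0.08). For DNAJC3 it was -0.67 (-1.43 to 0.09) and for SPCS3 -0.59 (-1.11 to -0.06). The dimmer SPCS3 probe gave -0.09, so the SPCS3 value rests on the brighter probe. PDIA5 stood at -0.02 (-0.65 to 0.61). Calls were also 0 for siCBP against siNS, with a median of -0.09 and 0 probes at an unadjusted p under 0.05, and 0 for sip300 against siCBP, with a median of -0.19 and 1 such probe. The share of all probes at an unadjusted p under 0.05 is not given here, and nothing is read from the member counts at that threshold. The 0 calls held with replicate number as a block, where the lowest adjusted p for sip300 against siNS was 0.462.

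**Figure D3:**
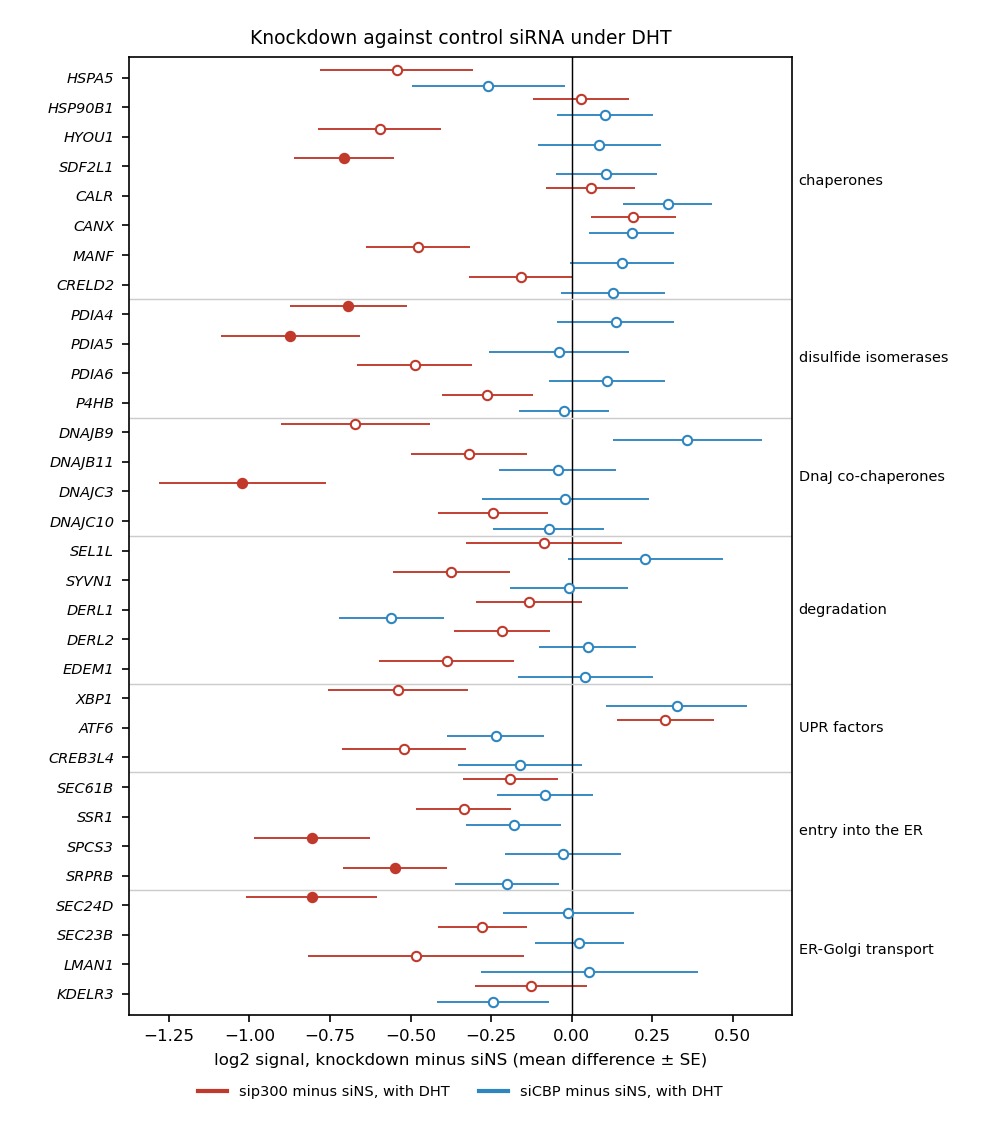
Difference in log2 signal between sip300 and siNS cells (red) and between siCBP and siNS cells (blue), all with DHT, for the brightest probe of 32 member genes. Points are differences of 4-array means with SE bars, filled where the adjusted p is under 0.05. The 7 filled points, DNAJC3 the farthest left at -1.02, are all sip300, and the siCBP points scatter about 0.

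Values on single arrays follow by the step each gene serves, listed for replicates 1 to 4 in that order. Where a gene has several probes the brightest carries its value.

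SEC24D is a cargo-binding subunit of the inner COPII coat. Log2 signals of SEC24D in sip300 cells were 7.62, 7.58, 8.02 and 7.39 with DHT, against 6.81, 6.89, 6.24 and 6.49 without it. siCBP cells gave SEC24D values of 8.74, 8.49, 8.13 and 8.42 with DHT, against 7.09, 7.35, 6.83 and 7.15 without it. For siNS cells, SEC24D read 8.62, 8.37, 8.27 and 8.56 with DHT, against 6.87, 6.96, 6.30 and 7.39 without it. In each arm the 4 SEC24D arrays with DHT lay above the 4 without it. SEC24D rose by 1.04 ± 0.204 in sip300, 1.34 ± 0.204 in siCBP and 1.57 ± 0.204 in siNS cells (adjusted p = 0.0109, 0.000298 and 3.36e-05), a 2.06-, 2.53- and 2.98-fold difference. On slides 1 and 2 its mean response was 1.38 and 1.25. With quantile normalization and no background correction, the SEC24D rises were 0.53, 0.83 and 0.93 in sip300, siCBP and siNS cells, all still called, and the mean was 0.76. SEC24D had the highest mean of the 32 genes in the main values, but with quantile normalization (1.08 for DNAJB9) and on slide 1 (1.46 for DNAJB9) DNAJB9 was higher. With DHT, all 4 sip300 arrays lay below all siCBP and siNS arrays. There SEC24D fell by 0.81 ± 0.204 against siNS cells (adjusted p = 0.0148) and by 0.80 ± 0.204 against siCBP cells (adjusted p = 0.0218). The quantile values for these falls were -0.53 and -0.52, and slides 1 and 2 gave -0.97 and -0.65 against siNS and -0.95 and -0.64 against siCBP cells. The SEC24D call in sip300 cells was lost without either of 2 arrays, sip300 with DHT replicate 3 and sip300 without DHT replicate 3 (adjusted p = 0.0652 to 0.0655). That against siNS cells was lost without sip300 with DHT replicate 4 (adjusted p = 0.0526). The call against siCBP cells ended without any 1 of 4 arrays, sip300 with DHT replicates 1 and 4 and siCBP with DHT replicates 1 and 4 (adjusted p = 0.0507 to 0.0788).

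SEC23B, the partner that activates the coat GTPase SAR1, has 2 detected probes. SEC23B read 11.74, 11.63, 11.53 and 11.81 with DHT, against 11.34, 11.76, 11.22 and 11.34 without it in the sip300 arm. In siCBP cells SEC23B read 12.06, 12.06, 11.80 and 11.98 with DHT, against 11.61, 11.42, 11.45 and 11.55 without it. siNS arrays showed SEC23B at 12.20, 12.09, 11.74 and 11.78 with DHT, against 11.48, 11.38, 11.37 and 11.62 without it. The 4 SEC23B arrays with DHT lay above the 4 without it in the siCBP and siNS arms and overlapped them in the sip300 arm. SEC23B rose by 0.41 ± 0.0800 (adjusted p = 0.00177) on average, and its second probe by 0.33 ± 0.0701 (adjusted p = 0.00426). The second probe was the one called in single contrasts, up by 0.50 ± 0.121 with DHT in siCBP cells (adjusted p = 0.0291) and down by 0.38 ± 0.121 in sip300 against siNS cells under DHT (adjusted p = 0.0486). In siCBP cells it read 11.93, 12.03, 11.83 and 11.92 with DHT, against 11.53, 11.48, 11.28 and 11.41 without it. With DHT it read 11.73, 11.66, 11.50 and 11.39 in sip300 cells, against 12.12, 12.00, 11.78 and 11.91 in siNS cells. Neither pair of groups overlapped. On slides 1 and 2 the second SEC23B probe differed by 0.51 and 0.50 for DHT in siCBP cells and by -0.40 and -0.37 in sip300 against siNS cells. The siCBP call was lost without any 1 of 6 arrays, those other than siCBP with DHT replicate 3 and siCBP without DHT replicate 1 (adjusted p = 0.0583 to 0.124). The sip300 call was lost without any 1 of 7 arrays, those other than siNS with DHT replicate 3 (adjusted p = 0.0542 to 0.153). In the block fit the second probe was also lower in sip300 than in siCBP cells with DHT (adjusted p = 0.0284, against 0.0827 without the block), and both probes rose with DHT in siNS cells (adjusted p = 0.0220 and 0.0274). LMAN1, a lectin that carries glycoproteins to the Golgi, and KDELR3, which retrieves ER residents, had mean responses of 0.23 ± 0.194 and 0.08 ± 0.100 (adjusted p = 0.687 and 0.825). LMAN1 was lower in sip300 cells in the block fit alone, by 0.48 against siNS cells with DHT (block adjusted p = 0.0378) and 0.51 without it (0.0324). The block fit also called LMAN1 lower in sip300 than in siCBP cells with DHT.

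**Figure D4:**
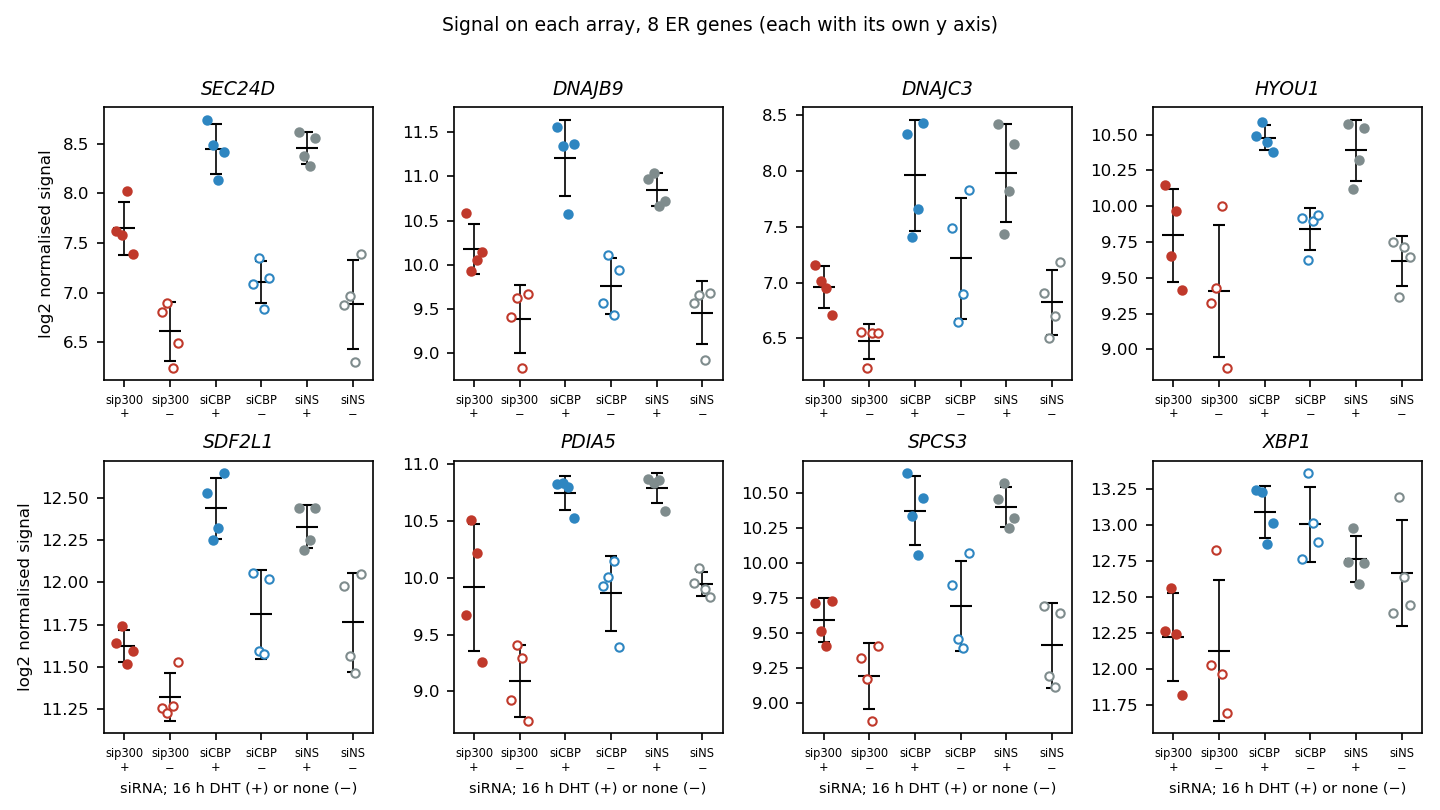
Log2 normalised signal on every array for 8 member genes, each panel with its own axis. Columns are sip300, siCBP and siNS cells with (filled) and without (open) DHT, points are arrays and bars are mean ± SD (n = 4). In SEC24D every filled point lies above the open points of its arm.

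Genes of ER entry and signal peptide removal were called for DHT and for the sip300 siRNA. SPCS3 is a non-catalytic subunit of the signal peptidase. The sip300 arrays put SPCS3 at 9.72, 9.52, 9.41 and 9.73 with DHT, against 9.32, 9.17, 8.87 and 9.41 without it. The siCBP arrays put SPCS3 at 10.64, 10.33, 10.06 and 10.46 with DHT, against 9.85, 9.46, 9.39 and 10.07 without it. Those of siNS put SPCS3 at 10.46, 10.57, 10.25 and 10.32 with DHT, against 9.69, 9.19, 9.12 and 9.64 without it. With and without DHT, the SPCS3 arrays separated in the siNS arm and overlapped in the sip300 and siCBP arms. SPCS3 rose by 0.99 ± 0.179 in siNS cells (adjusted p = 0.00211) and by 0.69 ± 0.103 (adjusted p = 8.08e-05) over the arms, which was 0.73 and 0.65 on slides 1 and 2. In siCBP cells its difference of 0.68 ± 0.179 missed the threshold at 0.0533 and passed with the block at 0.00164. With DHT the sip300 arrays lay below all others, and SPCS3 fell by 0.81 ± 0.179 against siNS (adjusted p = 0.00636) and 0.78 ± 0.179 against siCBP cells (adjusted p = 0.0115). Within slides 1 and 2 these SPCS3 differences were -0.72 and -0.89 and, against siCBP cells, -0.67 and -0.89. The dimmer probe fell by 1.20 ± 0.297 and, without DHT, by 1.12 ± 0.297 against siNS cells (adjusted p = 0.0128 and 0.0245). The brighter SPCS3 probe was not called there without DHT, at -0.22 ± 0.179 (adjusted p = 0.543), so the call without DHT rests on the dimmer probe, which was detected on 23 of 24 arrays. That probe read 7.14, 7.53, 6.55 and 6.72 in sip300 cells and 8.24, 8.54, 7.89 and 8.10 in siNS cells with DHT. Without DHT it read 5.58, 7.32, 6.07 and 6.26 in sip300 and 7.68, 7.53, 6.91 and 7.56 in siNS cells, which overlap. For the dimmer SPCS3 probe, slides 1 and 2 gave -1.39 and -1.02 with DHT and -0.60 and -1.63 without it, and quantile normalization without background correction gave -0.70 and -0.50, both called. Its mean DHT response was 0.81 ± 0.171, and 0.43 with that normalization. Its call with DHT ended without sip300 with DHT replicate 3 (adjusted p = 0.0501). Its call without DHT ended without any 1 of 6 arrays, those other than sip300 without DHT replicate 2 and siNS without DHT replicate 3 (adjusted p = 0.0507 to 0.109). Against siCBP cells the block added 2 calls, the brighter probe without DHT (adjusted p = 0.0131) and the dimmer one with it (0.0188).

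SRPRB anchors the signal recognition particle receptor in the ER membrane. In sip300 cells, SRPRB measured 11.66, 11.69, 11.54 and 11.59 with DHT, against 11.15, 11.47, 11.43 and 11.68 without it. SRPRB in siCBP cells measured 12.06, 11.79, 11.96 and 12.05 with DHT, against 11.45, 11.62, 11.56 and 11.62 without it. Values of SRPRB in siNS cells were 12.27, 11.96, 12.18 and 12.26 with DHT, against 11.76, 11.21, 11.29 and 12.08 without it. The 4 SRPRB arrays with DHT lay above the 4 without it in the siCBP arm and overlapped them in the sip300 and siNS arms. SRPRB rose by 0.39 ± 0.0933 (adjusted p = 0.0110) on average, 0.38 and 0.40 on the slides, and fell in sip300 against siNS cells under DHT by 0.55 ± 0.162 (adjusted p = 0.0345). That SRPRB difference was -0.49 and -0.61 on slides 1 and 2. The fall was no longer called without any 1 of 6 arrays, those other than sip300 with DHT replicate 2 and siNS with DHT replicate 2 (adjusted p = 0.0626 to 0.0935). SSR1, the alpha subunit of the translocon-associated protein complex, followed DHT without a called knockdown difference. Log2 signals of SSR1 in sip300 cells were 11.65, 11.65, 11.59 and 11.51 with DHT, against 11.31, 11.13, 11.13 and 11.30 without it. siCBP cells gave SSR1 values of 12.20, 11.36, 11.65 and 11.80 with DHT, against 11.26, 11.43, 11.41 and 11.47 without it. For siNS cells, SSR1 read 12.16, 11.86, 11.88 and 11.83 with DHT, against 11.41, 11.44, 11.22 and 11.60 without it. With and without DHT, the SSR1 arrays separated in the sip300 and siNS arms and overlapped in the siCBP arm. Its mean rise was 0.42 ± 0.0848 (adjusted p = 0.00244), with 0.40 and 0.44 on slides 1 and 2. The block fit also called SRPRB and SSR1 in siNS cells alone (adjusted p = 0.0255 and 0.0328, against 0.0691 and 0.0771). SEC61B, a translocon subunit, had a mean response of 0.20 ± 0.0852 (adjusted p = 0.233).

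Among the BiP co-chaperones of the DnaJ family, DNAJB9 had the largest response. DNAJB9, also called ERdj4, binds misfolded proteins and restrains IRE1. DNAJB9 read 10.59, 9.92, 10.05 and 10.15 with DHT, against 9.40, 9.62, 8.84 and 9.67 without it in the sip300 arm. In siCBP cells DNAJB9 read 11.56, 11.34, 10.58 and 11.36 with DHT, against 9.57, 10.11, 9.43 and 9.94 without it. siNS arrays showed DNAJB9 at 10.97, 11.04, 10.67 and 10.72 with DHT, against 9.56, 9.66, 8.92 and 9.67 without it. In each arm the 4 DNAJB9 arrays with DHT lay above the 4 without it. DNAJB9 rose by 1.45 ± 0.231 in siCBP cells (adjusted p = 0.000526) and by 1.39 ± 0.231 in siNS cells (adjusted p = 0.000819), 2.73- and 2.63-fold. In sip300 cells the difference of 0.79 ± 0.231 had an adjusted p of 0.229, and 0.0153 with the block. Its mean response was 1.46 and 0.97 on the slides. Under DHT, DNAJB9 fell by 1.03 ± 0.231 in sip300 against siCBP cells (adjusted p = 0.00979), with overlap of the highest sip300 and lowest siCBP arrays. Slides 1 and 2 gave -0.98 and -1.08 for this DNAJB9 difference. Against siNS cells the difference of -0.67 ± 0.231 was called in the block fit alone (adjusted p = 0.00828, against 0.0706).

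DNAJC3, known as p58IPK, is a luminal co-chaperone first described as an inhibitor of the eIF2alpha kinases. The sip300 arrays put DNAJC3 at 7.16, 7.02, 6.95 and 6.70 with DHT, against 6.56, 6.24, 6.54 and 6.55 without it. The siCBP arrays put DNAJC3 at 8.33, 7.41, 7.66 and 8.44 with DHT, against 7.49, 6.65, 6.90 and 7.83 without it. Those of siNS put DNAJC3 at 8.42, 7.44, 7.82 and 8.24 with DHT, against 6.91, 6.50, 6.70 and 7.19 without it. The 4 DNAJC3 arrays with DHT lay above the 4 without it in the sip300 and siNS arms and overlapped them in the siCBP arm. DNAJC3 rose by 1.16 ± 0.259 in siNS cells (adjusted p = 0.0139) and by 0.80 ± 0.149 (adjusted p = 0.00111) on average, 0.61 and 0.98 on the slides. In siCBP cells 0.74 ± 0.259 was called with the block only (adjusted p = 0.0230). Under DHT the signal in sip300 cells was 49.2% of that in siNS cells and 49.9% of that in siCBP cells, falls of 1.02 ± 0.259 and 1.00 ± 0.259 (adjusted p = 0.0150 and 0.0228). On slides 1 and 2 the DNAJC3 differences were -0.91 and -1.14 against siNS and -0.99 and -1.01 against siCBP cells. With quantile normalization and no background correction they were -0.59 and -0.58, the DNAJC3 rise in siNS cells was 0.65 and its mean response 0.43, all called. Every sip300 array with DHT was below every siNS and siCBP array with DHT. The DNAJC3 rise in siNS cells was lost without any 1 of 3 arrays, siNS with DHT replicates 1 and 4 and siNS without DHT replicate 2 (adjusted p = 0.0570 to 0.0770). The fall against siNS cells was lost without either of 2 arrays, siNS with DHT replicates 1 and 4 (adjusted p = 0.0521 to 0.0622). The fall against siCBP cells was lost without any 1 of 4 arrays, sip300 with DHT replicates 3 and 4 and siCBP with DHT replicates 1 and 4 (adjusted p = 0.0537 to 0.0884). Without DHT, sip300 against siCBP cells was called with the block (adjusted p = 0.0127, against 0.118).

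DNAJB11, or ERdj3, delivers clients to BiP. In sip300 cells, DNAJB11 measured 12.45, 12.02, 12.02 and 12.56 with DHT, against 11.93, 12.03, 11.77 and 12.21 without it. DNAJB11 in siCBP cells measured 12.42, 12.59, 12.23 and 12.92 with DHT, against 12.08, 12.02, 11.83 and 12.41 without it. Values of DNAJB11 in siNS cells were 12.61, 12.60, 12.24 and 12.89 with DHT, against 12.27, 11.97, 11.85 and 12.17 without it. The DNAJB11 arrays with and without DHT overlapped in every arm. DNAJB11 rose by 0.42 ± 0.104 (adjusted p = 0.0160) over the arms, 0.60 and 0.24 on slides 1 and 2. The block fit called it in siCBP and in siNS cells too (adjusted p = 0.0249 and 0.00817, against 0.369 and 0.205). DNAJC10, or ERdj5, is a disulfide reductase that prepares clients for degradation. Log2 signals of DNAJC10 in sip300 cells were 9.71, 9.93, 9.90 and 9.37 with DHT, against 9.34, 9.36, 9.53 and 8.76 without it. siCBP cells gave DNAJC10 values of 10.07, 9.46, 10.07 and 10.01 with DHT, against 9.63, 9.78, 9.56 and 9.70 without it. For siNS cells, DNAJC10 read 10.07, 9.85, 10.02 and 9.94 with DHT, against 9.35, 9.59, 9.68 and 9.72 without it. With and without DHT, the DNAJC10 arrays separated in the siNS arm and overlapped in the sip300 and siCBP arms. It rose by 0.36 ± 0.0991 (adjusted p = 0.0296) on average, with 0.18 and 0.55 on the slides. The call was lost without any 1 of 8 arrays, sip300 with DHT replicates 2 and 3, siCBP with DHT replicates 1, 3 and 4, siCBP without DHT replicate 3, siNS with DHT replicate 1 and siNS without DHT replicate 1 (adjusted p = 0.0536 to 0.0579). Its dimmer probe gave 0.24 ± 0.454 (adjusted p = 0.894).

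Of the disulfide isomerases, PDIA5 and PDIA4 were called for DHT and for sip300 against siNS cells. PDIA5 catalyses disulfide exchange in the lumen and has been linked to activation of ATF6. PDIA5 read 9.67, 10.51, 10.22 and 9.25 with DHT, against 8.92, 9.41, 9.30 and 8.74 without it in the sip300 arm. In siCBP cells PDIA5 read 10.83, 10.84, 10.80 and 10.52 with DHT, against 9.92, 10.00, 10.14 and 9.39 without it. siNS arrays showed PDIA5 at 10.87, 10.83, 10.86 and 10.59 with DHT, against 9.95, 10.09, 9.91 and 9.83 without it. The 4 PDIA5 arrays with DHT lay above the 4 without it in the siCBP and siNS arms and overlapped them in the sip300 arm. PDIA5 rose by 0.88 ± 0.216 in siCBP and 0.84 ± 0.216 in siNS cells (adjusted p = 0.0314 and 0.0404). Its 0.82 ± 0.216 in sip300 cells was called with the block only (adjusted p = 0.00484, against 0.127). Mean responses on the slides were 0.64 and 1.06. PDIA5 was lower in sip300 cells at both times, at 54.6% of the siNS signal with DHT and 55.3% without it (adjusted p = 0.0131 and 0.0188). The sip300 arrays lay below the siNS arrays at both times, and against siCBP cells PDIA5 fell by 0.83 ± 0.216 with DHT and 0.77 ± 0.216 without it (adjusted p = 0.0232 and 0.0457), with overlap in the second case. Against siNS cells the PDIA5 differences on slides 1 and 2 were -1.25 and -0.50 with DHT and -0.58 and -1.13 without it. Against siCBP cells they were -1.22 and -0.45 with DHT and -0.30 and -1.24 without it.

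Each PDIA5 call from a single contrast depended on single arrays. The rise in siCBP cells was lost without any 1 of 6 arrays, those other than siCBP with DHT replicate 4 and siCBP without DHT replicate 3 (adjusted p = 0.0551 to 0.130). The rise in siNS cells was lost without any 1 of the 8 arrays compared (adjusted p = 0.0510 to 0.122). The fall against siNS cells with DHT was lost without either of 2 arrays, sip300 with DHT replicates 1 and 4 (adjusted p = 0.0515 to 0.0571). Without DHT, that fall was lost without any 1 of 3 arrays, sip300 without DHT replicates 1 and 4 and siNS without DHT replicate 1 (adjusted p = 0.0504 to 0.0675). Against siCBP cells with DHT, the call was lost without any 1 of 4 arrays, sip300 with DHT replicates 1 and 4 and siCBP with DHT replicates 1 and 2 (adjusted p = 0.0550 to 0.0973). Without DHT, this call was lost without any 1 of 6 arrays, those other than sip300 without DHT replicate 2 and siCBP without DHT replicate 4 (adjusted p = 0.0592 to 0.140). The mean DHT response of PDIA5 was 0.85 ± 0.125 and was called whichever array was left out (adjusted p = 6.00e-05 with all).

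PDIA4, or ERp72, is a multidomain isomerase. The sip300 arrays put PDIA4 at 7.72, 8.15, 8.42 and 7.99 with DHT, against 7.21, 8.05, 8.26 and 7.93 without it. The siCBP arrays put PDIA4 at 8.83, 8.92, 9.09 and 8.74 with DHT, against 8.20, 8.35, 8.29 and 8.41 without it. Those of siNS put PDIA4 at 8.69, 8.84, 8.71 and 8.80 with DHT, against 8.02, 8.39, 8.04 and 8.27 without it. The 4 PDIA4 arrays with DHT lay above the 4 without it in the siCBP and siNS arms and overlapped them in the sip300 arm. PDIA4 rose by 0.46 ± 0.104 (adjusted p = 0.00768) on average, 0.34 and 0.57 on the slides. The block fit called it in siCBP and siNS cells (adjusted p = 0.0325 and 0.0309, against 0.140 and 0.125). With DHT it fell by 0.69 ± 0.181 in sip300 against siNS and by 0.83 ± 0.181 against siCBP cells (adjusted p = 0.0178 and 0.00830), and the sip300 arrays lay below both. For PDIA4, slides 1 and 2 gave -0.96 and -0.42 against siNS and -0.98 and -0.68 against siCBP cells. The first of these was lost without sip300 with DHT replicate 1 (adjusted p = 0.0785). PDIA6, a luminal isomerase known to bind IRE1, had a mean response of 0.30 ± 0.103 that was called with the block (adjusted p = 0.00611, against 0.107). Its knockdown differences were -0.49 ± 0.179 with DHT and -0.44 ± 0.179 without it against siNS cells (block adjusted p = 0.00738 and 0.0168), and -0.60 ± 0.179 and -0.40 ± 0.179 against siCBP cells (0.00230 and 0.0353). P4HB, the founding isomerase of the family, gave a mean response of 0.18 ± 0.0808 (adjusted p = 0.261).

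Chaperones of the Hsp70 and Hsp90 classes and their partners split between genes that rose and genes that did not pass. HSPA5, with an ERSE at 66 to 48 bases before its start, is the central chaperone. In sip300 cells, HSPA5 measured 7.83, 8.76, 8.67 and 8.33 with DHT, against 7.83, 8.58, 8.44 and 8.20 without it. HSPA5 in siCBP cells measured 8.52, 8.40, 8.93 and 8.88 with DHT, against 7.66, 8.78, 8.57 and 8.23 without it. Values of HSPA5 in siNS cells were 8.99, 8.96, 8.79 and 9.03 with DHT, against 8.30, 8.92, 8.15 and 8.41 without it. The HSPA5 arrays with and without DHT overlapped in every arm. The mean HSPA5 response was 0.34 ± 0.137 (adjusted p = 0.203, and 0.0676 with the block), and 0.35 and 0.33 on slides 1 and 2. Under DHT all 4 sip300 arrays lay below all 4 siNS arrays, a difference of -0.54 ± 0.237 that did not pass (adjusted p = 0.164). HYOU1, with 2 ERSE-II matches, did pass. Log2 signals of HYOU1 in sip300 cells were 10.15, 9.65, 9.96 and 9.42 with DHT, against 9.33, 9.43, 10.00 and 8.87 without it. siCBP cells gave HYOU1 values of 10.49, 10.59, 10.45 and 10.38 with DHT, against 9.91, 9.63, 9.89 and 9.93 without it. For siNS cells, HYOU1 read 10.58, 10.12, 10.32 and 10.55 with DHT, against 9.75, 9.37, 9.72 and 9.64 without it. With and without DHT, the HYOU1 arrays separated in the siCBP and siNS arms and overlapped in the sip300 arm. HYOU1 rose by 0.77 ± 0.192 in siNS cells (adjusted p = 0.0324), and its other probe by 0.71 ± 0.179 in siNS and 0.86 ± 0.179 in siCBP cells (adjusted p = 0.0338 and 0.00968). The other probe read 10.46, 10.71, 10.64 and 10.24 with DHT, against 9.58, 9.69, 9.75 and 9.61 without it in siCBP cells, without overlap. The siNS call of the brighter probe was lost without any 1 of 6 arrays, those other than siNS with DHT replicate 2 and siNS without DHT replicate 1 (adjusted p = 0.0555 to 0.130). That of the other probe was lost without any 1 of 6 arrays, those other than siNS with DHT replicates 2 and 4 (adjusted p = 0.0597 to 0.171). Over the arms HYOU1 rose by 0.60 ± 0.111 (adjusted p = 0.000954), 0.41 and 0.79 on the slides.

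Under DHT, both HYOU1 probes were lower in sip300 than in siCBP cells, by 0.68 ± 0.192 and 0.79 ± 0.179 (adjusted p = 0.0362 and 0.0101). Slides 1 and 2 gave HYOU1 differences of -0.70 and -0.66 for the brighter probe and -0.93 and -0.66 for the other. The first of these calls was lost without any 1 of 7 arrays, those other than sip300 with DHT replicate 1 (adjusted p = 0.0518 to 0.130). Against siNS cells the values were -0.60 ± 0.192 and -0.55 ± 0.179, called with the block (adjusted p = 0.0223 and 0.0135) and not without it (0.0526 and 0.0556). In siCBP cells the brighter HYOU1 probe had a DHT response of 0.63 ± 0.192, likewise called with the block alone (adjusted p = 0.0485).

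SDF2L1, the other gene with an ERSE-II, belongs to the BiP and ERdj3 complex. SDF2L1 read 11.64, 11.74, 11.52 and 11.60 with DHT, against 11.26, 11.23, 11.27 and 11.53 without it in the sip300 arm. In siCBP cells SDF2L1 read 12.53, 12.25, 12.32 and 12.65 with DHT, against 12.06, 11.59, 11.58 and 12.02 without it. siNS arrays showed SDF2L1 at 12.44, 12.19, 12.25 and 12.44 with DHT, against 11.98, 11.56, 11.47 and 12.05 without it. The 4 SDF2L1 arrays with DHT lay above the 4 without it in the siCBP and siNS arms and overlapped them in the sip300 arm. SDF2L1 rose by 0.63 ± 0.156 in siCBP cells (adjusted p = 0.0354) and 0.50 ± 0.0899 (adjusted p = 0.000690) over the arms, 0.46 and 0.54 on the slides. In siNS cells 0.57 ± 0.156 passed with the block (adjusted p = 0.00575, against 0.0640). The siCBP call was lost without any 1 of 5 arrays, those other than siCBP with DHT replicate 2 and siCBP without DHT replicates 1 and 4 (adjusted p = 0.0501 to 0.161). With DHT, SDF2L1 in sip300 cells was 61.3% of siNS and 56.9% of siCBP cells, falls of 0.71 ± 0.156 and 0.81 ± 0.156 (adjusted p = 0.00608 and 0.00315). They were -0.70 and -0.72 and, against siCBP cells, -0.83 and -0.80 for SDF2L1 on slides 1 and 2. The 4 sip300 arrays with DHT lay below all others with DHT, and both calls held with any array left out. Without DHT the differences were -0.45 ± 0.156 and -0.49 ± 0.156, called in the block fit (adjusted p = 0.0150 and 0.0112) and not without it (0.0921 and 0.0826).

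MANF is a small ER protein and BiP cofactor that is secreted under stress. The sip300 arrays put MANF at 13.20, 13.24, 13.36 and 13.08 with DHT, against 12.68, 13.28, 13.18 and 12.72 without it. The siCBP arrays put MANF at 14.00, 13.76, 13.64 and 13.99 with DHT, against 13.18, 13.29, 12.86 and 13.35 without it. Those of siNS put MANF at 13.64, 13.87, 13.44 and 13.82 with DHT, against 13.28, 13.16, 12.93 and 12.87 without it. The 4 MANF arrays with DHT lay above the 4 without it in the siCBP and siNS arms and overlapped them in the sip300 arm. MANF rose by 0.68 ± 0.162 in siCBP and 0.63 ± 0.162 in siNS cells (adjusted p = 0.0274 and 0.0404), and its mean response was 0.42 and 0.62 on the slides. The siCBP rise was lost without any 1 of 4 arrays, siCBP with DHT replicates 1 and 4 and siCBP without DHT replicates 1 and 3 (adjusted p = 0.0672 to 0.139). The siNS rise was lost without any 1 of 6 arrays, those other than siNS with DHT replicate 3 and siNS without DHT replicate 1 (adjusted p = 0.0644 to 0.142). Under DHT it fell by 0.63 ± 0.162 in sip300 against siCBP cells (adjusted p = 0.0218), with MANF at -0.74 and -0.52 on slides 1 and 2. That fall was lost without any 1 of 4 arrays, sip300 with DHT replicates 1 and 4 and siCBP with DHT replicates 1 and 4 (adjusted p = 0.0587 to 0.0705). Against siNS cells -0.48 ± 0.162 was called with the block (adjusted p = 0.0396, against 0.0669). CRELD2, another stress-induced luminal protein and the 1 ERSE gene that rose, changed by 0.36 ± 0.0926 (adjusted p = 0.0212) on average, 0.24 and 0.47 on the slides. In sip300 cells, CRELD2 measured 12.53, 12.55, 12.33 and 12.34 with DHT, against 11.72, 12.61, 12.43 and 12.03 without it. CRELD2 in siCBP cells measured 12.76, 12.66, 12.55 and 12.93 with DHT, against 12.45, 12.31, 12.15 and 12.55 without it. Values of CRELD2 in siNS cells were 12.73, 12.64, 12.42 and 12.59 with DHT, against 12.02, 12.22, 12.19 and 12.08 without it. With and without DHT, the CRELD2 arrays separated in the siNS arm and overlapped in the sip300 and siCBP arms. HSP90B1, the ER Hsp90, gave 0.29 ± 0.0862 (adjusted p = 0.0510, and 0.0287 with the block). The lectin chaperones CALR and CANX had mean responses of 0.11 ± 0.0796 and 0.17 ± 0.0762 (adjusted p = 0.578 and 0.282). CALR was higher in sip300 than in siNS cells without DHT by 0.38 ± 0.138, in the block fit alone (adjusted p = 0.0432).

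Genes of ER-associated degradation gave 2 DHT calls among 5 detected genes. EDEM1 is a mannosidase-like protein that hands glycoproteins to degradation. Log2 signals of EDEM1 in sip300 cells were 8.48, 8.39, 8.48 and 8.25 with DHT, against 8.19, 7.65, 8.14 and 8.68 without it. siCBP cells gave EDEM1 values of 8.99, 8.38, 8.65 and 9.29 with DHT, against 8.29, 8.44, 8.41 and 8.62 without it. For siNS cells, EDEM1 read 9.05, 8.66, 8.57 and 8.88 with DHT, against 8.21, 8.06, 7.82 and 8.64 without it. The EDEM1 arrays with and without DHT overlapped in every arm. EDEM1 rose by 0.41 ± 0.121 (adjusted p = 0.0477) on average, 0.54 and 0.29 on the slides. The call was lost without any 1 of 18 arrays, those other than sip300 without DHT replicate 4, siCBP with DHT replicates 2 and 3, siCBP without DHT replicate 4, siNS with DHT replicate 3 and siNS without DHT replicate 4 (adjusted p = 0.0515 to 0.0952). With the block it was also called in siNS cells (adjusted p = 0.0434). DERL2, a derlin of the dislocation channel, had 0.33 ± 0.0864 (adjusted p = 0.0241), 0.33 and 0.33 on the slides. Its dimmer probe was not called, at 0.19 ± 0.125 (adjusted p = 0.532), and in siNS cells the dimmer DERL2 probe gave -0.04 where the brighter one gave 0.37. DERL2 read 10.79, 10.45, 10.65 and 10.61 with DHT, against 10.46, 10.33, 10.33 and 10.53 without it in the sip300 arm. In siCBP cells DERL2 read 11.05, 10.60, 10.81 and 11.09 with DHT, against 10.81, 10.49, 10.29 and 10.36 without it. siNS arrays showed DERL2 at 11.02, 10.64, 10.80 and 10.89 with DHT, against 10.66, 10.47, 10.17 and 10.58 without it. In no arm were the DERL2 arrays with DHT all above those without it. The DERL2 call was lost without any 1 of 3 arrays, siCBP without DHT replicate 3, siNS with DHT replicate 1 and siNS without DHT replicate 3 (adjusted p = 0.05005 to 0.0508).

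DERL1 had a mean DHT response of 0.04 ± 0.0944 (adjusted p = 0.915). The sip300 arrays put DERL1 at 10.94, 10.42, 10.83 and 10.97 with DHT, against 10.82, 10.61, 10.97 and 11.09 without it. The siCBP arrays put DERL1 at 10.44, 10.48, 10.38 and 10.14 with DHT, against 10.37, 10.25, 10.39 and 9.91 without it. Those of siNS put DERL1 at 11.05, 10.81, 10.88 and 10.95 with DHT, against 11.18, 10.50, 10.79 and 10.92 without it. The siCBP arrays lay below the siNS arrays at both times and below the sip300 arrays without DHT. DERL1 was higher in sip300 than in siCBP cells without DHT by 0.65 ± 0.163 (adjusted p = 0.0271). Slides 1 and 2 gave 0.65 and 0.64 for DERL1 there. That call was lost without any 1 of 4 arrays, sip300 without DHT replicates 1, 3 and 4 and siCBP without DHT replicate 4 (adjusted p = 0.0590 to 0.104). SYVN1, the ubiquitin ligase HRD1, had a mean response of 0.34 ± 0.105 (adjusted p = 0.0629, and 0.00760 with the block). By arm it was -0.00304 ± 0.182 in sip300, 0.46 ± 0.182 in siCBP and 0.57 ± 0.182 in siNS cells, and the last was called in the block fit (adjusted p = 0.0190). SEL1L, the HRD1 adaptor, was near the detection limit, with a mean response of 0.23 ± 0.139 (adjusted p = 0.498).

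Of the response's own factors, CREB3L4 rose with DHT, while XBP1 and ATF6 were called between siRNA arms. XBP1 carries an ERSE in its promoter and has 2 probes, which were not assigned to the spliced or the unspliced form. In sip300 cells, XBP1 measured 12.26, 12.56, 12.24 and 11.82 with DHT, against 12.02, 12.82, 11.96 and 11.69 without it. XBP1 in siCBP cells measured 13.24, 13.23, 12.87 and 13.01 with DHT, against 12.76, 13.36, 13.01 and 12.88 without it. Values of XBP1 in siNS cells were 12.74, 12.98, 12.59 and 12.74 with DHT, against 12.39, 13.19, 12.64 and 12.44 without it. In no arm were the XBP1 arrays with DHT all above those without it. The mean XBP1 response was 0.09 ± 0.126 (adjusted p = 0.835), and 0.10 and 0.09 on the slides. XBP1 in sip300 cells was 54.9% of siCBP cells with DHT and 54.5% without it, falls of 0.87 ± 0.218 and 0.88 ± 0.218 (adjusted p = 0.0202 and 0.0251). On slides 1 and 2 the brighter XBP1 probe differed by -1.08 and -0.65 with DHT and by -0.43 and -1.33 without it. All sip300 arrays with DHT lay below all siCBP arrays with DHT, and the groups without DHT overlapped. The second probe fell by 0.82 ± 0.235 and 0.91 ± 0.235 (adjusted p = 0.0410 and 0.0302). For it the slide values of XBP1 were -1.04 and -0.59 with DHT and -0.40 and -1.42 without it. The second probe lost its call with DHT without any 1 of 6 arrays, those other than sip300 with DHT replicate 2 and siCBP with DHT replicate 3 (adjusted p = 0.0651 to 0.140). Its call without DHT was lost without any 1 of 5 arrays, those other than sip300 without DHT replicate 2 and siCBP without DHT replicates 1 and 4 (adjusted p = 0.0779 to 0.105). With DHT the brighter probe lost its call without any 1 of 3 arrays, sip300 with DHT replicate 4 and siCBP with DHT replicates 1 and 2 (adjusted p = 0.0522 to 0.0776). Without DHT it lost the call without any 1 of 4 arrays, sip300 without DHT replicates 1, 3 and 4 and siCBP without DHT replicate 2 (adjusted p = 0.0707 to 0.0921).

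Against siNS cells XBP1 stood at -0.54 ± 0.218 with DHT and -0.54 ± 0.218 without it in sip300 cells, called with the block (adjusted p = 0.0142 and 0.0174) and not without it (0.129 and 0.153). In siCBP cells the corresponding values were 0.33 ± 0.218 and 0.34 ± 0.218 (adjusted p = 1.000 and 0.999). ATF6 encodes the membrane-bound factor that is cut in the Golgi. Log2 signals of ATF6 in sip300 cells were 10.31, 10.43, 10.51 and 10.39 with DHT, against 10.15, 10.08, 10.01 and 10.25 without it. siCBP cells gave ATF6 values of 10.16, 9.35, 10.15 and 9.88 with DHT, against 9.78, 10.08, 10.09 and 10.17 without it. For siNS cells, ATF6 read 10.04, 10.08, 10.18 and 10.17 with DHT, against 9.92, 10.15, 9.91 and 10.08 without it. The 4 ATF6 arrays with DHT lay above the 4 without it in the sip300 arm and overlapped them in the siCBP and siNS arms. ATF6 was the 1 member higher in sip300 than in siCBP cells under DHT, by 0.53 ± 0.150 (adjusted p = 0.0384), without overlap of the arrays. Slides 1 and 2 gave 0.74 and 0.32 for ATF6, and without siCBP with DHT replicate 2 the difference was 0.35 (adjusted p = 0.137). The ATF6 call was lost without any 1 of 6 arrays, those other than siCBP with DHT replicates 1 and 3 (adjusted p = 0.0657 to 0.137). Its mean DHT response was 0.08 ± 0.0866 (adjusted p = 0.763).

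CREB3L4, a membrane-bound bZIP factor that was first described as androgen-induced in prostate cells, rose by 0.45 ± 0.111 (adjusted p = 0.0154) over the arms. CREB3L4 read 8.76, 9.19, 9.01 and 8.58 with DHT, against 8.62, 8.47, 8.78 and 8.29 without it in the sip300 arm. In siCBP cells CREB3L4 read 9.36, 9.01, 9.24 and 9.37 with DHT, against 8.55, 8.93, 8.97 and 8.90 without it. siNS arrays showed CREB3L4 at 9.94, 9.19, 9.55 and 8.93 with DHT, against 8.63, 9.07, 8.96 and 8.62 without it. With and without DHT, the CREB3L4 arrays separated in the siCBP arm and overlapped in the sip300 and siNS arms. On slides 1 and 2 the mean response was 0.26 and 0.63. Under DHT it stood at -0.52 ± 0.192 in sip300 against siNS cells, which did not pass (adjusted p = 0.0935). The only ERN1 probe was not above background on any array, with log2 signals of 4.55 to 5.08 over the 24 arrays.

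The remaining genes of the same pathways were followed through 5 lists of 136 genes by function, of which 119 were detected. These lists too were chosen with earlier results of these data known. For the mean DHT response 18 of the 119 rose, which is 15.1%, and 0 fell. Of the 12438 genes named by a detected probe, each through its brightest, 3.42% rose and 2.94% fell. By list, 4 of 25 folding genes rose, 3 of 22 degradation genes, 3 of 16 stress signalling genes, 2 of 20 translocation genes and 6 of 36 transport genes. The list medians were 0.12, 0.16, -0.02, 0.19 and 0.19 in that order, against -0.01 for all probes. Folding genes that rose were HSPA13, a microsomal Hsp70-like protein (0.62 ± 0.121), DNAJC1, a membrane DnaJ protein (0.59 ± 0.136), PPIB, the luminal cyclophilin (0.40 ± 0.108), and the calcium-binding CALU (0.33 ± 0.0665). For degradation they were the ubiquitin-conjugating UBE2J1 (0.52 ± 0.150), SELENOS (0.37 ± 0.0773) and the glycanase NGLY1 (0.31 ± 0.0865). For signalling they were ATF3 (0.44 ± 0.117), CREB3L2 (0.40 ± 0.0882) and WFS1 (0.35 ± 0.0739). SSR3 (0.65 ± 0.165) and SRP19 (0.38 ± 0.0875) rose among translocation genes. Transport genes with the largest rises were PREB, the exchange factor of SAR1 (0.44 ± 0.110), SEC24B (0.44 ± 0.125), the cargo receptor SURF4 (0.42 ± 0.0906) and TMED7 (0.39 ± 0.0958).

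In sip300 against siNS cells with DHT, 13 of these 119 genes fell (10.9%) and 1 rose (0.84%). Of named genes 5.18% fell and 6.6% rose, 11.8% in all. Counted in either direction, the share of the lists was about that of named genes, and the 2 differed in direction only. HSPA13 fell by 0.96 ± 0.210 and the prolyl isomerase FKBP11 by 0.72 ± 0.156. The pseudokinase TRIB3 and the membrane-bound factor CREB3L2 fell by 0.53 ± 0.161 and 0.53 ± 0.153, and the selenoprotein SELENOK by 0.52 ± 0.152. MARCHF6, an ER ubiquitin ligase, rose by 0.66 ± 0.196. Of the entry machinery, the catalytic signal peptidase subunit SEC11C fell by 0.77 ± 0.203, the signal recognition particle protein SRP72 by 0.72 ± 0.138 and SRPRA, the receptor partner of SRPRB, by 0.54 ± 0.153. Among 5 transport genes that fell, the p24 family members TMED5 (-1.01 ± 0.176) and TMED7 (-0.58 ± 0.166), the LMAN1 partner MCFD2 (-0.54 ± 0.165) and TFG (-0.49 ± 0.138) had the largest differences. Without DHT, 5 fell, TRIB3 (-0.78 ± 0.161), SEC11C (-0.96 ± 0.203), SRP72 (-0.59 ± 0.138), TMED5 (-0.96 ± 0.176) and TMED3 (-0.59 ± 0.128), and PPIC (0.82 ± 0.193) and ERGIC3 (0.48 ± 0.127) rose. Those shares, 4.2% lower and 1.68% higher, compare with 3.58% and 4.27% of named genes, and nothing is read from them about these lists. In siCBP against siNS cells 0 of 119 were called with or without DHT, and for the 3 differences of DHT response 0 were called. In the block fit, 31 of the 119 rose and 1 fell for the mean DHT response, against 5.54% and 5.88% of named genes. In sip300 against siNS cells the block gave 24 lower and 7 higher with DHT, where 9.46% of named genes were lower and 12.1% higher. Without DHT it gave 12 lower and 5 higher, near the 18.1% of named genes called in either direction.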

How the data were processed

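Mean bead intensity per probe and its detection p-value on each of 24 Illumina arrays of C4-2B cells were used as deposited, not normalized per the file headers. The authors' processed log2 values, also deposited, served as an alternative. The submitters' processing notes name limma for them and no step. Their array medians were 5.45 to 5.47, all 24 columns matched their own array (r at least 0.980 with raw log2 signals and 0.998 with the normalised ones), and their background correction and centring stay unknown. Total RNA was extracted with TRIzol and labelled with biotin, per the labels.

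From the intensities, limma 3.58.1 in R 4.3.3 corrected background from the detection p-values and normalised between arrays (neqc, offset 16). Of 47231 probes, the 23038 whose detection p was below 0.05 on 4 or more arrays were tested. Gene symbols came from the platform's table, updated by identifier, and among tested probes 16655 named 1 gene, 4 several and 6379 none. One fit of 6 group means with empirical Bayes variances (18 residual degrees of freedom) gave every contrast, with Benjamini-Hochberg adjustment over all tested probes and calls at 0.05. The script was tested on simulated data. The number of arrays limits the precision.

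Replicate numbers come from the sample titles, which do not say what they mark. All 60 pairs of same-numbered arrays from different groups had deviations from their group means that correlated above 0.1 (0.127 to 0.522, median 0.288). Of 180 differently numbered pairs 17 did, with a median of -0.099. Centring on group means itself pulls that median below 0, so it is no independent baseline. A fit blocked by replicate number, with 15 residual degrees of freedom, was therefore added. It is printed for calls that it changes, though not for every one. That pairing is inferred from these data. Other alternatives were the normalization, the authors' values, the detection filter, 1 probe per gene, the slide, the groups fitted and each array left out. Members, pathway lists, motifs and tests were chosen with earlier results of these data known. All 36 members could be named, with values on every array for those called in any contrast and for HSPA5, XBP1, ATF6 and CREB3L4. Each pathway list contributed at most its 4 most changed genes among those called.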

Additional observations from a re-analysis of the deposited data

Results flagged for a closer look

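In 10 of 192 gene and group sets, 1 of the 4 arrays stood far from the other 3, its gap to the nearest, as a share of the group's range, exceeding Dixon's critical value. At this limit chance gives about 1 in 20 sets, and 5.21% were found. HSP90B1 was low in siCBP replicate 2 with DHT, at a log2 signal of 13.24 with the next array at 13.50. HYOU1 was low in siCBP replicate 2 without DHT, at a log2 signal of 9.63 with the next array at 9.89. SDF2L1 was high in sip300 replicate 4 without DHT, at a log2 signal of 11.53 with the next array at 11.27. PDIA5 was low in siCBP replicate 4 with DHT, at a log2 signal of 10.52 with the next array at 10.80. PDIA5 was low in siNS replicate 4 with DHT, at a log2 signal of 10.59 with the next array at 10.83. DNAJB9 was low in siNS replicate 3 without DHT, at a log2 signal of 8.92 with the next array at 9.56. DNAJC3 was low in sip300 replicate 2 without DHT, at a log2 signal of 6.24 with the next array at 6.54. DNAJC10 was low in siCBP replicate 2 with DHT, at a log2 signal of 9.46 with the next array at 10.01. CREB3L4 was low in siCBP replicate 1 without DHT, at a log2 signal of 8.55 with the next array at 8.90. SSR1 was high in siNS replicate 1 with DHT, at a log2 signal of 12.16 with the next array at 11.88. The low PDIA5 arrays are both replicate 4 with DHT, in siCBP and in siNS cells, and the lowest sip300 value of PDIA5 with DHT, 9.25, was replicate 4 as well. Left out in turn, the PDIA5 array of siCBP cells did not end the DHT call in that arm, whereas that of siNS cells did, as did each of the other 7 arrays of that comparison.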

How the results depend on the processing

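No called member reversed under quantile normalization, the authors' values, a single slide or an array left out. The 2 blocks, the detection filters, the brightest probes and the groups fitted leave the log2 difference of a probe unchanged in this balanced design. They could change a call but not its direction. The 65 called member results gave 614 values under alternatives other than leaving out an array, of which 473 kept the call and 141 lost it, 59 of them on slide 1 alone and 54 on slide 2 alone, with 2 arrays per group. Quantile normalization without background correction moved the size of 13 of them by over 1.5 times, those of SEC24D, DNAJC3 and the dimmer SPCS3 probe. All 65 calls held with quantile normalization, with the authors' values, with replicate number as a block and with slide as a block. Of 856 values with an array left out, 689 kept the call, and 31 of the 65 results kept it in every one. For DHT in siNS cells, 8 probes were called, against 13 with quantile normalization, 13 with detection on all 24 arrays, 22 with the authors' values, 17 with the replicate block, 5 with only the groups compared in the fit, and 1 and 0 on slides 1 and 2. In sip300 cells DHT gave 1, against 4 with the authors' values, 3 with the block, 0 with only the groups compared and 0 on slide 1. In siCBP cells it gave 7, against 18 with the authors' values, 14 with the block, 3 with only the groups compared and 0 on either slide. The mean of the arms gave 21, 24 with the block, and 3 and 9 on the slides. In sip300 against siNS cells there were 9 with DHT, against 22 with the authors' values, 17 with the block, and 2 and 0 on the slides. Without DHT it gave 2, against 4 with quantile normalization, 8 with the authors' values, 7 with the block, 1 with the brightest probes, 1 with only the groups compared, and 0 and 1 on the slides. In sip300 against siCBP cells there were 13 with DHT, against 23 with the authors' values, 17 with the block, 6 with only the groups compared and 0 on either slide. Without DHT it gave 4, against 16 with the authors' values, 8 with the block, 0 with only the groups compared, and 0 and 1 on the slides. In siCBP against siNS cells there were 0, against 1 with the authors' values both with and without DHT, and the 3 differences of DHT response gave 0 throughout. The authors' values raised the share of all probes called too, to 7.87% for DHT in siNS cells and 25.9% for sip300 against siNS cells with DHT. The cause was not tested. Single-slide fits have fewer samples. With the block, 9.84% of all probes were called for sip300 against siCBP cells without DHT and 13.1% with it. For most other settings the share of all probes is not printed. Those counts therefore show only how calls moved with the processing, and nothing is read from them about the members.

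With each array left out, calls numbered 0 to 2 for DHT in sip300 (0 without sip300 replicate 3 at either time), 3 to 6 in siCBP, 3 to 6 in siNS and 18 to 22 over the arms. They numbered 5 to 10 for sip300 against siNS with DHT and 0 to 4 without it, 5 to 13 for sip300 against siCBP with DHT and 0 to 5 without it, and stayed 0 elsewhere. Lowest counts came without replicate 1 with DHT in the siCBP and siNS arms, and without sip300 replicate 4 with DHT in both sip300 comparisons with DHT. Over the arms, the member median was 0.30 with quantile normalization and 0.34 with the authors' values. For sip300 against siNS cells with DHT it was -0.32 and -0.35, and for the difference of DHT response -0.21 and -0.22. The median of all probes stayed within 0.02 of 0. Probes near background limit what can be seen of SEL1L and of the dimmer probes of SYVN1 and SPCS3.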
